A study of Mus musculus with 9 samples.

Results

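The superoxide dismutases, catalase and the peroxiredoxins were measured in the RNA of extracellular vesicles (EVs), membrane-bound packets of RNA and protein shed by cells. They comprise 10 genes, Sod1, Sod2, Sod3, Cat and Prdx1 to Prdx6, taken by gene name from the array design, of 36492 gene names on the array. These genes have 15 of the 55681 noncontrol probes. The EVs came from mouse embryonic fibroblasts (MEFs), connective tissue cells that served the study as EV donors. RNA of the EVs was hybridised to 1-colour Agilent arrays. EVs of PBS-treated MEFs were measured on 5 arrays and EVs of control MEFs on 4 arrays, PBS being phosphate-buffered saline. The labels give no genotype, strain or time for either group, and whether the PBS-treated cells were also pulsed, as in the electroporation that the study uses to load donor cells, is not said. Nor is it said that replicates were separate cultures, so p-values cover the spread between samples that may be technical repeats.

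Superoxide dismutases turn superoxide, a by-product of respiration and of oxidases, into hydrogen peroxide and oxygen. Catalase and the peroxiredoxins then remove the peroxide. Catalase does so with a heme iron inside peroxisomes, whereas peroxiredoxins use a reactive cysteine that most of them have reduced again by thioredoxin. Most of these enzymes are made in nearly all cells, and Sod2 is known as a gene that inflammatory signals induce.

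Relative to all transcripts detected in the EVs, 5 of the 10 genes were higher in EVs of PBS-treated MEFs than in control EVs, 3 were lower and 2 did not pass the test. Sod2 rose by 4.54 on the log2 scale, 23.3-fold. Prdx1, Prdx5, Sod3 and Prdx3 rose by 1.83, 1.67, 1.41 and 1.07. Prdx4 fell by 1.97, Cat by 0.62 and Sod1 by 0.47 at the probe used for each gene, and the signs of Cat and Sod1 turned when arrays were scaled to spike-in probes. Among all 14319 genes tested, 52.2% were called, 31.5% higher and 20.7% lower. This balance moved with the scaling, from 4513 genes higher and 2964 lower here to 8964 and 710 with spike-in scaling, where 9 of the 10 genes were higher and 1 lower, and to 1888 and 4674 under normexp background correction with the percentile of detected probes. A call was therefore common on these arrays, and 8 of 10 is read against that share.

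Values are log2 of a probe's background-corrected signal minus the 75th percentile of the same array, taken over 8422 probes well above background on all arrays, so that 0 lies at that percentile. A call means a Benjamini-Hochberg adjusted p under 0.05 in limma, two-sided and over all genes tested. Levels of different probes are not compared, since each probe has its own brightness per molecule. A higher value can mean more of a transcript in each vesicle, more vesicles that carry it, or less of the other transcripts that set the percentile. These cannot be told apart in RNA pooled over EVs.

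Between 16492 and 19233 probes were well above background on PBS-treated arrays and between 12584 and 15554 on control arrays. The 75th percentile minus the mean of 8 spike-in probes was -3.06 to -2.84 log2 units on PBS-treated arrays and -4.32 to -4.12 on control arrays. Spike-in probes report synthetic control RNAs that are no mouse transcripts. Scaling to them accordingly moved the median difference of all genes to 1.27, against -0.02 here. Slide 1 carried PBS-treated replicates 1 to 3 together with controls 1 and 2, and the other arrays (PBS-treated 4 and 5, control 3 and 4) were on slide 2. Control arrays correlated at 0.884 to 0.906 across slides and at 0.984 and 0.995 within a slide. Both slide 2 control arrays lay under both slide 1 control arrays for 9 of the 10 genes, all but Cat. Both slide 2 PBS-treated arrays lay under those of slide 1 for 6 of the 10. The same share over all genes was not taken, so these counts are no result about the 10 genes. Within-slide differences are given with each gene.

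The labelled cell type was checked against marker lists. Of 12 fibroblast markers 10 were tested, among them Col1a1, Col1a2, Fn1 and Vim, while Thy1 was above background on no array. Of these, 3 were higher, 3 lower and 4 did not pass. The share to set beside each marker list is 52.2% of all genes called, 31.5% higher and 20.7% lower. Dcn (2.03) and S100a4 (1.45) were higher. Lum is counted as higher too, but it was above background on 4 PBS-treated arrays and on no control array. It thus entered the test only through its PBS-treated arrays, and its size is not given. Under normexp with the percentile of detected probes Lum was at -0.31. Col1a1 (-1.35), Fn1 (-1.17) and Pdgfra (-1.95) were lower. The summed signal of the 10, as a multiple of the 75th percentile, was 25.6 to 27.4 in PBS-treated EVs and 13.0 to 21.1 in control EVs. Such a sum is led by bright probes, here S100a4 among them, and is no measure of fibroblast content. S100a4 was at 0.63 in control replicate 3 and at 2.77 to 2.85 in the other control arrays, so its difference rests largely on that array. Of 7 leukocyte markers 3 were tested and Emr1, Cd68 and Lyz2 were above background on no array. Cd14 was higher by 2.21, Csf1r lower at -2.70 and Itgam lower at -1.30. The groups overlapped for Csf1r, whose control arrays were at -3.49 and -4.36 on slide 1 and at -1.34 and -1.36 on slide 2. The summed signal of the 3 was 1.05 to 2.05 in PBS-treated EVs and 2.09 to 3.02 in control EVs. No erythroid or epithelial marker was tested, with Hbb-b1, Alas2, Epcam, Krt18 and Cdh1 above background on no array. Of 3 endothelial markers Pecam1 and Kdr were tested and lower, and Cdh5 was above background on no array. Pecam1 was above background on 1 of 5 PBS-treated arrays, and its groups overlapped. It did not pass under normexp with quantile normalization or in the authors' value table (limma adjusted p = 0.063 and 0.067). With spike-in scaling no leukocyte or endothelial marker was called lower, and 6 fibroblast markers were higher and 1 lower. The part of these cell type signals in the results was not tested.

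The probes are 60 bases long, and 4 are shown by their first 30 bases in lower case, 5' to 3' as the array design lists them, with the position of the whole probe on mm9. They are the probe with the largest rise (Sod2), the probe with the largest fall (Prdx4) and both probes of Cat, whose differences had opposite signs. The first Cat probe, which starts at base 1411 of the transcript, is spread over 3343 bases of the genome and so crosses a splice junction. The other starts at base 2065.
Sod2 probe, chr17:13208074-13208133, plus strand: ggctggtttatagtagtgtagagcattgca
Prdx4 probe, chrX:151758471-151758530, minus strand: gctaaactgaaaagtacttcagttatgatg
Cat probe at base 1411, chr2:103297086-103300428, minus strand: aacagtgctaatgaagacaatgtcactcag
Cat probe at base 2065, chr2:103294487-103294546, minus strand: tggtctggtatatatacaatacaacacaca

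Promoters were available for 8 of the 10 genes in RefSeq tables of build GRCm38.p6, and Sod3 and Prdx6 had no entry. The 250 bases before the start are shown for Sod2 and Prdx1, which rose, and for Prdx4, which fell. Capitals mark matches, on either strand, to the GC box GGGCGG, to the antioxidant response element core TGACNNNGC, bound by NRF2, and to the kappa B consensus, bound by NF-kappa B. Overlapping GC boxes were each counted.
Sod2 promoter, chr17:13007589-13007838, plus strand: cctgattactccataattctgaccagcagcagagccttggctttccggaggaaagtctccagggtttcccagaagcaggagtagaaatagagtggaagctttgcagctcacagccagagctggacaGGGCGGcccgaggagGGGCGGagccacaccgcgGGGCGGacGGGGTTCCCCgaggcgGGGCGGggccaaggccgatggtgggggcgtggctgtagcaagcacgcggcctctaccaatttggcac
Prdx1 promoter, chr4:116685349-116685598, plus strand: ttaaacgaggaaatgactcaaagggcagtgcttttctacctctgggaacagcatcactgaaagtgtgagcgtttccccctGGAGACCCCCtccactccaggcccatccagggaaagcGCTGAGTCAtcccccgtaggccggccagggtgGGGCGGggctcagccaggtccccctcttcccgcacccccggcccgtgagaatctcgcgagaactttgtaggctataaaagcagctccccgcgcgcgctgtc
Prdx4 promoter, chrX:155338461-155338710, minus strand: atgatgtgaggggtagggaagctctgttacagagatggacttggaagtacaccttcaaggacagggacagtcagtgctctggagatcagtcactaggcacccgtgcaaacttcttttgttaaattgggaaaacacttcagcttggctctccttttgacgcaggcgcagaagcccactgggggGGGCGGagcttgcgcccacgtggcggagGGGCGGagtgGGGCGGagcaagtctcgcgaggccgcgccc

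A GC box lay in the promoters of all 8 genes, against 35.7% of 32851 promoters of 300 bases, these 250 bases and the 50 that follow the start. The kappa B consensus lay in 3 of the 8, Sod2 at position -83, Cat at -116 and Prdx1 at -170, against 8.46% of all promoters. The antioxidant response element core lay in 2, Prdx1 at -133 and Sod1 at -56, against 12.4%. Genes with the kappa B consensus thus included 2 that rose and Cat, and genes with the response element core included Prdx1, which rose, and Sod1. The Prdx4 promoter matched only the GC box, at 3 positions. A match is a description of letters and not a binding site.

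Sod2 encodes the manganese superoxide dismutase of the mitochondrial matrix. Its values were 3.95, 3.96, 3.21, 3.92 and 3.92 in PBS-treated replicates 1 to 5, against -0.42, -0.46, -1.11 and -1.001 in control replicates 1 to 4. Every PBS-treated array lay more than 3 log2 units over every control array, and the lowest PBS-treated value was that of replicate 3. The background-corrected signal was 13211 to 33988 units in PBS-treated EVs and 210.1 to 743.4 units in control EVs. PBS-treated EVs averaged 3.79 ± 0.33 (SD, n = 5) and control EVs -0.75 ± 0.36 (SD, n = 4), and the groups differed by 4.54 ± 0.23 (SE, 95% interval 4.02 to 5.05, limma adjusted p = 2.4e-06). Within slide 1 the difference was 4.15 and within slide 2 it was 4.97. The call held under all 28 alternatives, where the difference ran between 4.14 and 5.83.

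Sod1 encodes the copper-zinc dismutase of the cytosol. It measured 2.57, 2.68, 2.68, 2.24 and 2.35 in PBS-treated EVs, against 3.08, 3.19, 2.73 and 2.89 in control EVs. The groups did not overlap, but the highest PBS-treated value lay only just under control replicate 3. The difference was -0.47 ± 0.15 (SE, limma adjusted p = 0.0295), 1.38-fold lower in PBS-treated EVs, with -0.49 within slide 1 and -0.51 within slide 2. The direction depended on the scaling, for the difference was 0.82 with spike-in scaling (limma adjusted p = 0.000386) and 0.04 in the authors' value table (limma adjusted p = 0.902). Leaving out PBS-treated replicate 1, 4 or 5 or control replicate 1 or 2 also ended the call, with differences of -0.48, -0.40, -0.43, -0.43 and -0.39 and limma adjusted p of 0.0523 to 0.0746.

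Sod3 encodes the secreted copper-zinc dismutase that binds to heparan sulfate around cells. Its values were -0.66, -0.71, -1.95, -0.93 and -0.89 in PBS-treated EVs, against -2.35, -2.18, -2.68 and -2.55 in control EVs. PBS-treated replicate 3 stood over 1 log2 unit below the other PBS-treated arrays and only 0.23 above the highest control array, yet the groups did not overlap. The difference was 1.41 ± 0.27 (SE, limma adjusted p = 0.00249), a 2.66-fold rise. It was 1.71 within slide 2 (limma adjusted p = 0.00231) and 1.16 within slide 1 (limma adjusted p = 0.0749), the slide of replicate 3. Without that array it was 1.64. Under normexp background correction it was 0.87 with the percentile of detected probes, which did not pass (limma adjusted p = 0.0888), and 1.13 with quantile normalization, which did (limma adjusted p = 0.0284).

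Catalase was measured by 2 probes, whose differences had opposite signs here but the same sign under 2 of the 7 scalings. The probe at base 2065, which stands for the gene, gave -1.91, -2.39, -2.24, -2.40 and -2.22 in PBS-treated EVs, against -1.70, -1.60, -1.76 and -1.40 in control EVs. All PBS-treated arrays lay below all control arrays, by 0.62 ± 0.14 on average (SE, limma adjusted p = 0.00593), with -0.53 within slide 1 and -0.73 within slide 2. The fall became a rise of 0.67 with spike-in scaling (limma adjusted p = 0.00154) and was -0.21 with the percentile taken over all probes (limma adjusted p = 0.709).

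The Cat probe at base 1411 gave -5.09, -4.48, -4.99, -4.70 and -3.54 in PBS-treated EVs, against -5.87, -6.35, -6.06 and -5.21 in control EVs. Every PBS-treated array was above every control array. This probe was well above background on all 5 PBS-treated arrays and on no control array, with background-corrected signals of 42.2 to 99.3 units and 6.8 to 13.5 units. The rise is therefore a bound, at least 1.92-fold under the scaling used here. It sets the PBS-treated mean over the lowest signal that counted as well above background on each control array. This probe entered the test only through its PBS-treated arrays, so its p-value is not used here. The direction turned under normexp with the percentile of detected probes, which gave -0.31 (limma adjusted p = 0.385) and -0.61 for the probe at base 2065, so that both were below 0. With spike-in scaling both were above 0, at 2.61 and 0.67. The probe at base 1411 was at 0.59 under normexp with quantile normalization and at 0.47 in the authors' value table. The mean of the 2 probes gave 0.35 for the gene (limma adjusted p = 0.178). Whether the 2 probes differ from each other was not tested.

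**Figure D1:**
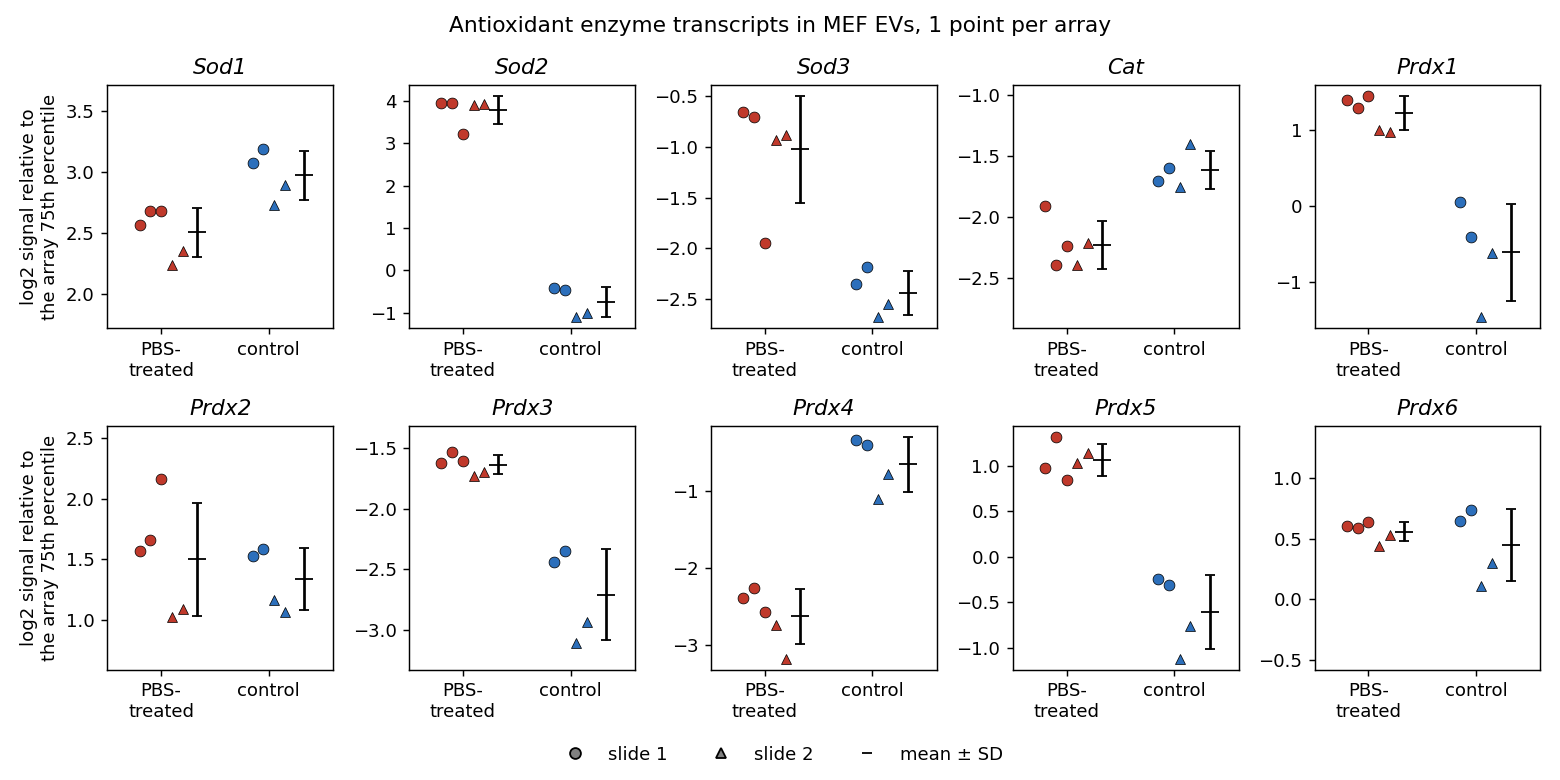
Log2 signal of each gene on each array, with the array's 75th percentile at 0, PBS-treated EVs (5 arrays) left of control EVs (4 arrays), with circles for slide 1, triangles for slide 2 and bars for the mean and SD; each panel has its own vertical scale. Points of the groups are separate for 8 genes and overlap for Prdx2 and Prdx6, and PBS-treated replicate 3 is the lone low point for Sod2 (3.21) and Sod3 (-1.95).

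Prdx1 encodes a cytosolic peroxiredoxin that takes its electrons from thioredoxin. At the probe at base 629 its values were 1.40, 1.29, 1.45, 0.997 and 0.98 in PBS-treated EVs, against 0.06, -0.41, -1.46 and -0.62 in control EVs. PBS-treated values lay close together and control values spread over 1.5 log2 units, with no overlap. The difference was 1.83 ± 0.29 (SE, limma adjusted p = 0.000819), a 3.56-fold rise, with 1.56 within slide 1 and 2.03 within slide 2. The second probe, at base 1233, gave 2.08 ± 0.29 (SE, limma adjusted p over all probes = 0.000454) and was well above background on 5 PBS-treated and 3 control arrays. Its difference was 0.92 under normexp with the percentile of detected probes and 1.32 in the authors' value table, and it passed under both. Both probes thus rose.

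Prdx2 encodes the closely related cytosolic peroxiredoxin that is abundant in red blood cells. It measured 1.57, 1.66, 2.16, 1.03 and 1.09 in PBS-treated EVs, against 1.53, 1.58, 1.17 and 1.07 in control EVs. The groups overlapped and the slides separated the values more than the groups did. The difference of 0.16 ± 0.25 (SE, limma adjusted p = 0.599) had a 95% interval of -0.41 to 0.74, so a change of up to that size was not excluded by these arrays. Without PBS-treated replicate 3, the highest array, the difference was -0.0017. With spike-in scaling it was 1.45 and passed (limma adjusted p = 0.000445).

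Prdx3 encodes the peroxiredoxin of mitochondria. It was measured by 10 spots of its probe on each array, which gave -1.63, -1.54, -1.61, -1.73 and -1.70 in PBS-treated EVs, against -2.44, -2.35, -3.11 and -2.93 in control EVs. The PBS-treated arrays agreed within 0.2 log2 units, and all lay above the control arrays. The SD over the spots of an array was 0.037 to 0.21 on PBS-treated arrays and 0.075 to 0.44 on control arrays, the most on control replicate 3. The difference was 1.07 ± 0.18 (SE, limma adjusted p = 0.00109), a 2.09-fold rise, with 0.80 within slide 1 and 1.30 within slide 2. Normexp background correction with the same percentile gave 0.53, which still passed.

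Prdx4 encodes the peroxiredoxin of the endoplasmic reticulum, where it couples peroxide to disulfide formation, and it can be secreted. Its values were -2.39, -2.26, -2.58, -2.75 and -3.18 in PBS-treated EVs, against -0.34, -0.41, -1.10 and -0.79 in control EVs. The highest PBS-treated array lay more than 1 log2 unit under the lowest control array. The difference was -1.97 ± 0.23 (SE, 95% interval -2.51 to -1.44, limma adjusted p = 0.00018), 3.93-fold lower in PBS-treated EVs, with -2.04 within slide 1 and -2.02 within slide 2. Prdx4 was the only gene of the 10 that was lower and called under all 28 alternatives, where its difference ran between -2.26 and -0.68, the last of these with spike-in scaling.

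Prdx5 encodes a peroxiredoxin found in mitochondria, peroxisomes and cytosol. It measured 0.98, 1.32, 0.85, 1.03 and 1.15 in PBS-treated EVs, against -0.25, -0.32, -1.12 and -0.76 in control EVs. All PBS-treated arrays were more than 1 log2 unit above all control arrays. The difference was 1.67 ± 0.20 (SE, limma adjusted p = 0.000198), a 3.19-fold rise, with 1.33 within slide 1 and 2.03 within slide 2.

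Prdx6 encodes the peroxiredoxin that uses glutathione in place of thioredoxin and also has phospholipase activity. At the probe at base 1379 it measured 0.61, 0.59, 0.63, 0.44 and 0.53 in PBS-treated EVs, against 0.65, 0.73, 0.11 and 0.30 in control EVs. The control arrays of slide 1 lay above all PBS-treated arrays and those of slide 2 below them. The difference was 0.11 ± 0.15 (SE, 95% interval -0.23 to 0.46, limma adjusted p = 0.549), with -0.08 within slide 1 and 0.28 within slide 2. Its probes at bases 527 and 726 gave 0.22 and 0.32, also without passing (limma adjusted p over all probes = 0.386 and 0.139), and the probe at base 1804 was above background on no array. With spike-in scaling the gene's difference was 1.40 and passed (limma adjusted p = 1.3e-05).

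**Figure D2:**
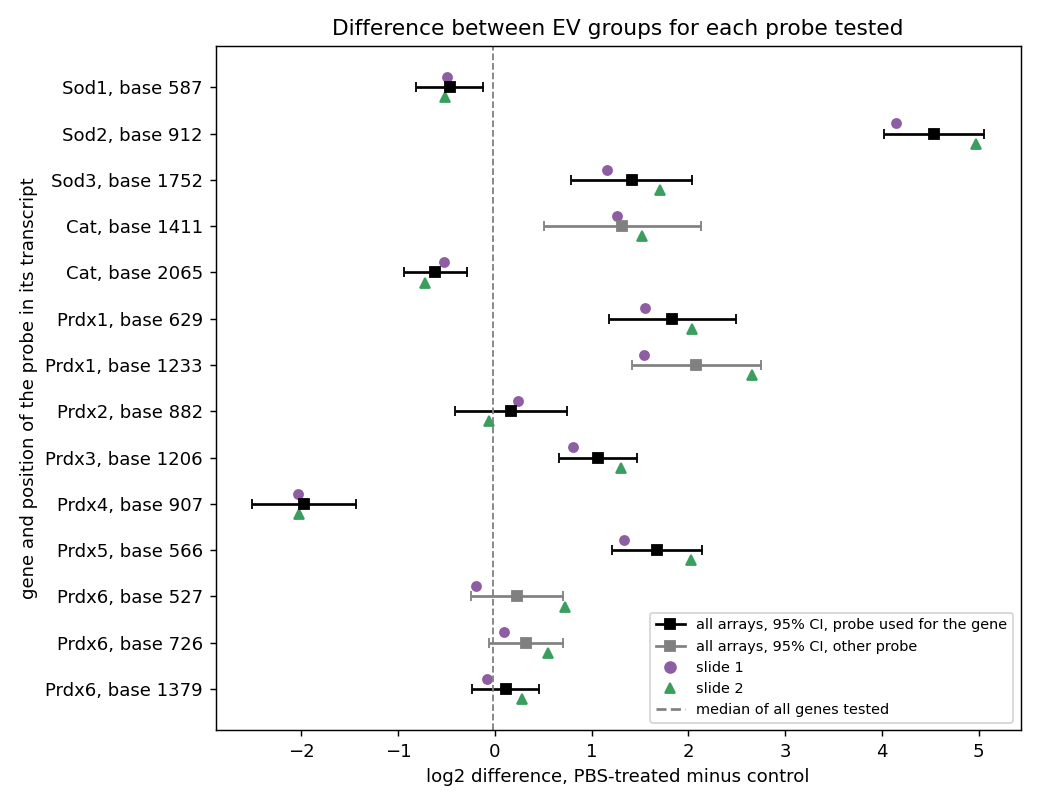
Difference in log2 signal, PBS-treated minus control, for the 14 probes tested, named by gene and first base in the transcript, with squares and 95% intervals for all 9 arrays, circles for slide 1, triangles for slide 2 and a dashed line at the median of all genes (-0.02). Within-slide values have the sign of the whole for all probes of 8 genes, and for Prdx2 and Prdx6 those of some probes lie on both sides of 0. The Cat probes lie on opposite sides of 0. The one at base 1411 was above background on no control array and stands for a rise of at least 1.92-fold under this scaling only.

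Of the 15 probes, 14 were tested and 12 were well above background on all arrays. Of the 14 tested, 10 were called, 7 higher and 3 lower, against 52.4% of all probes tested, 31.5% higher and 21.0% lower. The 7 include the Cat probe at base 1411, which entered the test only through its PBS-treated arrays. Over the 10 genes the median difference was 0.61, against -0.02 over all genes tested. The PBS-treated and control arrays did not overlap for 8 of the 10 genes, 5 higher and 3 lower, against 47.0% of all genes, 29.4% higher and 17.6% lower. Fitted on slide 1 alone, 7 of the 10 genes were called, against 62.2% of all genes, and on slide 2 alone 8 were called, against 63.8%. In a fit with a group by slide interaction, where 9.39% of all genes passed, none of the 10 genes passed with limma, and the lowest adjusted p was 0.0951 for Prdx3. Its rise was 0.50 larger on slide 2. Sod2, Prdx1, Prdx3, Prdx4 and Prdx5 were called in the same direction under all 28 alternatives.

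**Figure D3:**
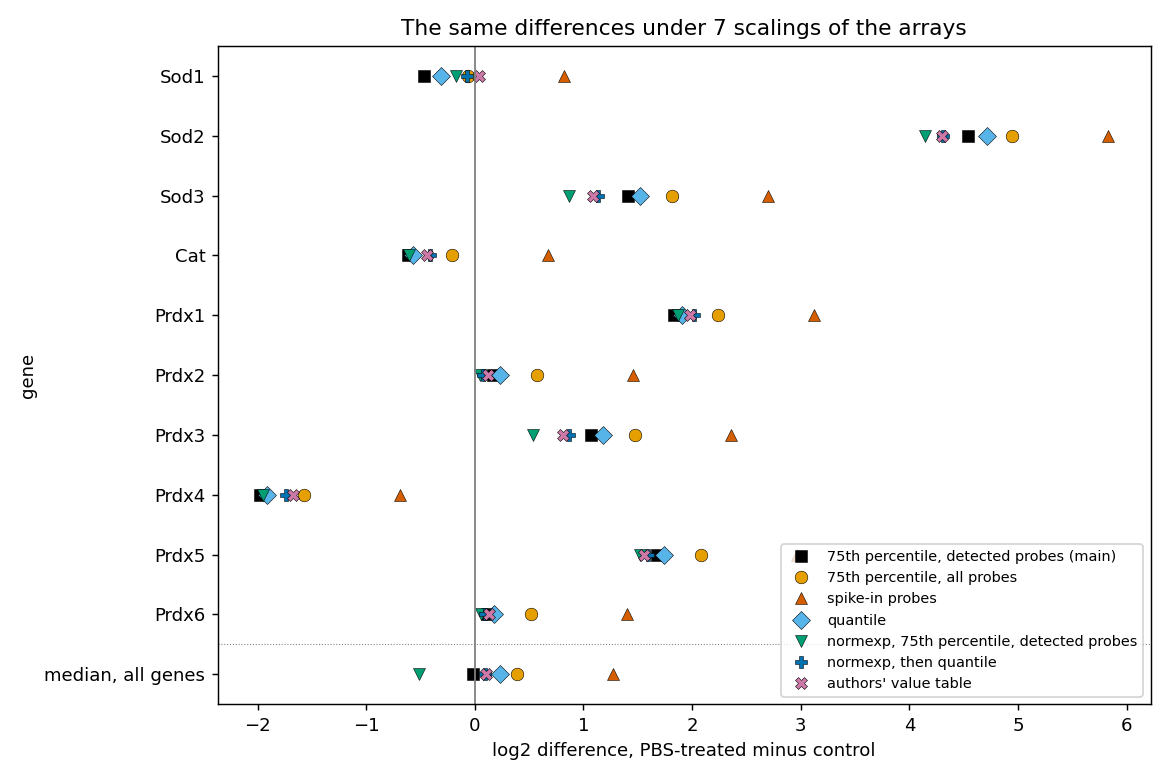
Difference in log2 signal, PBS-treated minus control, for each gene under 7 scalings of the arrays, 1 symbol per scaling, with the median of all genes tested in the lowest row. The symbols of Sod2, Sod3, Prdx1, Prdx3 and Prdx5 stay to the right of 0 and those of Prdx4 to its left. Those of Prdx2 and Prdx6 are right of 0 as well, the lowest at 0.050 and 0.052, but passed only with spike-in scaling. Those of Sod1 (-0.47 to 0.82) and Cat (-0.62 to 0.67) cross 0, and the spike-in symbols sit farthest to the right throughout.

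Since a common factor on each array cancels in the ratio of 2 genes, the genes were also set relative to Sod1 on the same array. This shows unequal change only and does not say which gene moved, and all 9 ratios share Sod1. The difference relative to Sod1 was 5.01 for Sod2, 2.30 for Prdx1, 2.14 for Prdx5, 1.88 for Sod3 and 1.53 for Prdx3. Prdx2 at 0.63 and Prdx6 at 0.58 also rose relative to Sod1 (limma adjusted p = 0.0118 and 0.00235). Prdx4 fell by 1.51 (limma adjusted p = 7.8e-05). Cat did not separate from Sod1, with a difference of -0.15 ± 0.18 (SE, limma adjusted p = 0.512). Relative to Sod1, 8 of 9 genes were thus called, 7 higher and 1 lower, against 54.7% of all genes called, 43.0% higher and 11.8% lower.

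**Figure D4:**
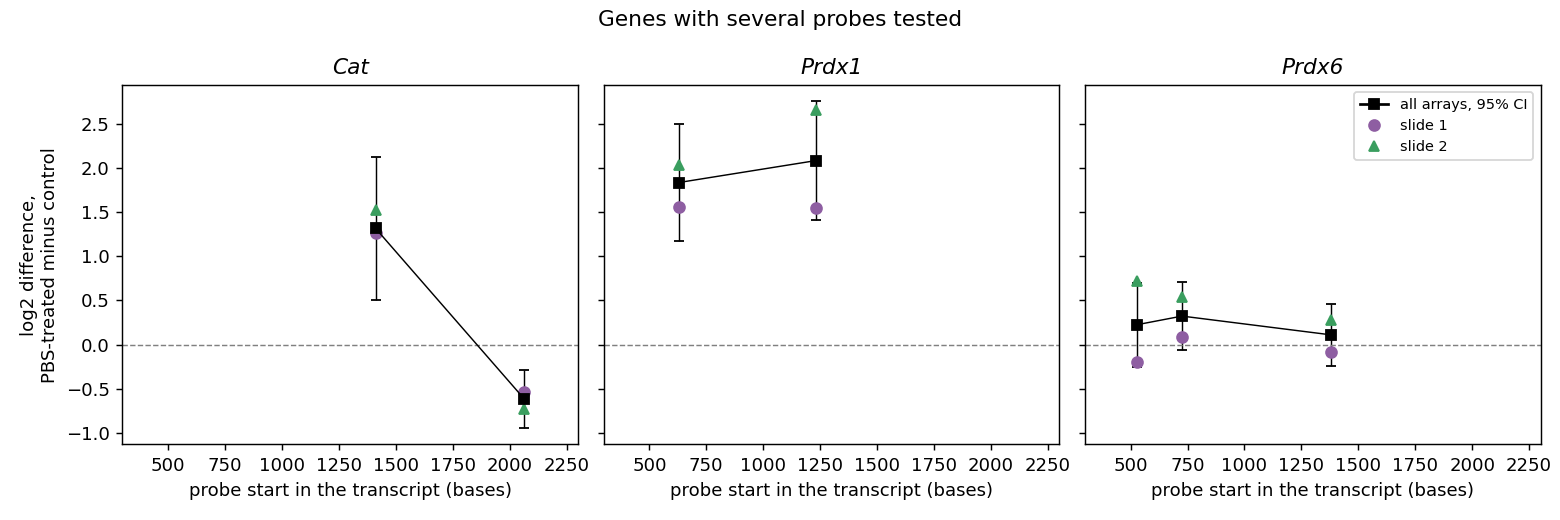
Difference in log2 signal, PBS-treated minus control, against the first base of each tested probe in the transcript for Cat, Prdx1 and Prdx6, with squares and 95% intervals for all arrays, circles for slide 1 and triangles for slide 2. The Cat probe at base 1411, above background on no control array, is plotted above 0 (a rise of at least 1.92-fold, turning to -0.31 under normexp with the percentile of detected probes) and that at base 2065 below it (-0.62, turning to 0.67 with spike-in scaling), both Prdx1 probes rose (1.83 and 2.08), and the intervals of the 3 Prdx6 probes include 0.

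Peroxiredoxins work with partners that reduce or repair them, and all 10 listed partners were tested. Of these 5 rose, 2 fell and 3 did not pass, with a median difference of 1.01, against -0.02 over all genes and 52.2% of all genes called, 31.5% higher and 20.7% lower. Txn1, the cytosolic thioredoxin, rose by 1.26 ± 0.14, and Txnrd1, the reductase that recharges it, by 1.53 ± 0.14 (SE). Srxn1, the sulfiredoxin that repairs overoxidised peroxiredoxins, rose by 1.21 ± 0.17 (SE, limma adjusted p = 0.000405). Sesn3, a sestrin, fell by 1.82 ± 0.14 (SE, limma adjusted p = 2.0e-05). These 4 kept their direction and their call under all 7 scalings. Under normexp with the percentile of detected probes, 1 of these 7, the median of the partners was -0.03, with 4 partners higher and 3 lower.

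Glutathione peroxidases remove peroxide with glutathione, and 3 of 8 were tested, while Gpx2, Gpx3, Gpx5 and Gpx6 were above background on no array. Gpx1, the common cytosolic enzyme, rose by 0.76 ± 0.16 and Gpx8, of the endoplasmic reticulum, by 0.59 ± 0.14 (SE, limma adjusted p = 0.00453 and 0.00611). Neither passed with the percentile over all probes, nor did Gpx8 under normexp with the percentile of detected probes. Gpx4, which protects membrane lipids, was at 0.07 and did not pass.

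Copper reaches Sod1 through Ccs, its chaperone, which rose by 0.59 ± 0.11 (SE, limma adjusted p = 0.00228) and did not pass with the percentile over all probes (limma adjusted p = 0.0655). Slc31a1, the copper importer, rose by 1.19 ± 0.26 (SE), though it was above background on only 2 of 4 control arrays, and it was at 0.14 without passing under normexp with the percentile of detected probes. Atox1, which hands copper to the secretory pathway, fell by 0.32 ± 0.11 (SE, limma adjusted p = 0.0335), but it passed as lower under no other scaling, and the difference was 0.08 with the percentile over all probes and 0.97 with spike-in scaling. Of the 4 genes listed 2 rose, 1 fell and 1 did not pass, with a median of 0.13, against 31.5% of all genes higher and 20.7% lower.

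Of 18 listed sources of superoxide and hydrogen peroxide 7 were tested and 9 were above background on no array, among them Cybb and Ncf1 of the phagocyte oxidase. Xdh, xanthine dehydrogenase, was higher by 3.25 and Maoa, monoamine oxidase, by 0.74, both above background on 2 of 4 control arrays. Under normexp with the percentile of detected probes Xdh was at 0.94 without passing and Maoa at -0.28. Cyba, a membrane subunit of NADPH oxidases, fell by 0.99 ± 0.14 (SE, limma adjusted p = 0.000384), and was at -0.59 with the percentile over all probes and at 0.30 with spike-in scaling, without passing. In all 3 rose, 1 fell and 3 did not pass, with a median of -0.09, a share of calls near the 52.2% of all genes.

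Peroxisome biogenesis genes, which build the organelle of catalase, were tested for 14 of 16 names, of which 6 rose, 2 fell and 6 did not pass, with a median of 0.43, against 52.2% of all genes called and a median of -0.02. Pex5, the receptor that imports catalase and other matrix proteins, fell by 2.15 ± 0.19, and Pex26, an anchor for the complex that recycles that receptor, fell by 3.04 ± 0.21 (SE, limma adjusted p = 3.5e-05 and 1.3e-05). Both fell under all 7 scalings. Pex7, the second import receptor, rose by 1.97, and it was above background on 2 of 4 control arrays. Under normexp with the percentile of detected probes no gene of the list rose and 3 fell, with a median of -0.25.

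The genes with profiles most like Sod2 over the 9 arrays, each gene centred on its own mean, were Pip5k1a, Slpi, Smim3, Fabp4 and Glrx, at a root mean square distance of 0.34 to 0.36 log2 units. Among the nearest to Sod1 were Nudcd3, Klf7, Elk3 and Efnb1 at 0.049 to 0.070. Nearest to Cat, at the probe at base 2065, were Cyb561d2, Rpl32, Gm4974, Scaf4 and Slc7a1 at 0.082 to 0.13. The arrays share the 2 groups and the 2 slides, and these distances are a description.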

How the data were processed

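EV RNA of MEFs (5 arrays PBS-treated, 4 arrays control) was labelled with cyanine 3 and hybridised to Agilent 8x60K mouse arrays. Per the file headers, spots were quantified by the authors in Agilent Feature Extraction, version 10.7.3.1. The deposited scanner files give a background-corrected intensity for each spot on a linear scale. Details of their in-house pipeline are not given in the sources consulted. The deposited value table holds log2 values, whose columns ranked the probes as mean signal did and shared a median of 5.97. It was taken as quantile-normalized without background subtraction, its centring is unknown, and it served as an alternative.

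Control spots were dropped, as were 3 to 29 spots an array that were marked non-uniform. No spot was saturated, spots of a probe were averaged, and the 75th percentile over 8422 probes detected on all arrays was subtracted. Probes well above background on at least 4 arrays were tested (17765), and each gene took its probe of highest mean (14319 genes). Gene names were updated by accession from RefSeq (26413 probes matched, 3093 renamed). The group comparison used limma 3.58.1 (lmFit and eBayes) in R 4.3.3, Python 3.11.15 made the other tables, and the fit was tested on simulated data. The precision is limited by the number of arrays.

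The 10 genes and the lists of partner genes were chosen with earlier results of these data known. All 10 genes and all their probes are reported, together with up to 4 called genes of smallest p per partner list and the 5 nearest profiles of Sod2, Sod1 and Cat. Some genes that these rules name are not reported here. Markers and genes above background on no array are named in addition. Alternatives covered the scaling, normexp background correction (offset 50), the value table, filters, the mean of a gene's probes, array weights, a robust trend, slide and replicate blocks, the methods' t-test and left-out arrays. Leaving out spots marked as population outliers and fitting each slide alone were chosen after seeing the data. Exon annotation of mm9 was not used here.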

Additional observations from a re-analysis of the deposited data

Results flagged for a closer look

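In 28 groups of 4 or 5 arrays, over 14 probes, the lowest or highest array was tested against the rest of its group with Dixon's criterion, which chance meets in about 1 of 20 groups. It was met in 2, both by PBS-treated replicate 3. For Sod2 this array measured 3.21, while the other PBS-treated arrays measured 3.92 to 3.96, and the gap made up 0.94 of the group's range. For Sod3 it measured -1.95, while the others measured -0.93 to -0.66, and the gap made up 0.789 of the range. The same array had 16492 probes well above background, the fewest of the PBS-treated arrays, and the highest PBS-treated value of Prdx2.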

How the results depend on the processing

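Of the 280 values of the 10 genes under 28 alternatives, 249 kept direction and side of the threshold, 11 reversed, 18 no longer passed and 2 newly passed. Reversed values were 0.82 (spike-in scaling) and 0.040 (value table) for Sod1, 0.67 (spike-in scaling) and 0.35 (mean of a gene's probes) for Cat, -0.054 (without both slide 2 control arrays) and -0.059 (slide 2 alone) for Prdx2, and -0.068 (array weights), -0.13 (without both slide 2 control arrays) and -0.081 (slide 1 alone) for Prdx6. Leaving out 1 array gave -0.0017 to 0.28 for Prdx2 and -0.0024 to 0.21 for Prdx6. Sod1 was called lower under 14 alternatives and Cat under 22, and both were called higher with spike-in scaling. The cause was not tested. Of the 10 genes, 1 was lower with the percentile over all probes, spike-in scaling, normexp with quantile, the value table and no filter, and 9 were higher with spike-in scaling. Left-out arrays gave 5 higher and 2 to 3 lower.

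Over all genes, 7477 were called (4513 higher, 2964 lower). Calls numbered 4883 with the percentile over all probes (1354 lower) and 4507 with the filter on all arrays, which tests fewer genes (2374 higher). Spike-in scaling gave 8964 higher and 710 lower, normexp with the percentile of detected probes 1888 and 4674, normexp then quantile 1900 lower and the authors' values 1889 lower. Genes called lower were 5272 with no filter, 4744 with array weights, 4908 with the slide block and 4488 on slide 1 alone. The median difference was 0.39 with the percentile over all probes, 0.23 with quantile normalization, -0.51 with normexp before the usual percentile, and -1.11 with no filter. The methods' t-test called 8035 genes unadjusted and 7211 after Benjamini-Hochberg.

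Replicate numbers were not taken as pairs. Deviations of same-numbered arrays correlated at 0.70, 0.73 and 0.74 for numbers 1, 2 and 4, which share a slide, and at -0.54 for number 3, which is split between slides, and 5 of 8 arrays correlated best with their own number. The replicate block gave 7443 calls, and Sod1 at -0.43 did not pass (limma adjusted p = 0.0859). It changed no other call among the 10 genes. Dim probes also limit the precision, as the Cat probe at base 1411 was above background on no control array.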

Other observations

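Probes of relatives that are not among the 10 genes gave the following values. The probe of Prdx6-ps2, named as a pseudogene of Prdx6, was above background on no array. Prdxdd1 has 2 probes that moved in opposite directions. The first measured 0.61, 0.60, 0.72, 1.05 and 0.70 in PBS-treated EVs, against 1.24, 1.27, 1.54 and 1.29 in control EVs, a difference of -0.60 (limma adjusted p over all probes = 0.00541). The second, above background on 7 of 9 arrays, gave a difference of 0.84 (limma adjusted p over all probes = 0.0047).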
